A study of Mus musculus with 12 samples.

Results

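Liver RNA levels of 8 iron-control genes were followed in mice whose liver lacks the glucocorticoid receptor (GR): the hepcidins Hamp and Hamp2, the iron importers and carriers Tfrc and Trf, the iron exporter Slc40a1, and the BMP pathway genes Bmp6, Smad7 and Id1. They were chosen by name, with earlier results of these same arrays known, so their levels and changes are described here with no test. On the Agilent arrays, 10 of 41174 probes carry these 8 names, out of 28784 gene symbols in all. Bmp6 and Id1 have 2 probes each, and the probe with the higher mean signal over the 12 arrays stands for the gene. All 12 samples came from male C57BL/6 mice of 3 months with the GR knockout in the liver, the comparison mice included, so no sample with an intact receptor is among them. The 4 PBS samples came from mice given the buffer alone, the 4 AAV-GFP samples from mice given an adeno-associated virus that carries green fluorescent protein, and the 4 AAV-hGRB samples from mice given the same kind of virus carrying hGRB, the human GR beta isoform, which lacks binding of glucocorticoid agonists. The sources used here do not give the promoter in the vectors, the Cre line behind the knockout, the vector dose or the time until the livers were collected. The comparison with AAV-GFP asks what hGRB does beyond the virus, the comparison of AAV-GFP with PBS what the virus does, and the comparison of AAV-hGRB with PBS what both do together. The 3 comparisons share arrays with each other, and their values are therefore given side by side.

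Hepcidin is a peptide hormone that hepatocytes release to lower iron in the blood. It binds ferroportin, the product of Slc40a1 and the iron exporter of macrophages, gut and hepatocytes, and causes its degradation. Its gene is switched on by BMP6, made largely by the endothelial cells of the liver sinusoids in response to iron, through receptors and SMAD proteins that also switch on Id1 and Smad7, and by interleukin 6 through STAT3. Mice carry a pair of hepcidin genes, of which Hamp encodes the hormone that controls iron, while the product of Hamp2 has not been shown to do so.

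Because the hepcidin genes are close copies, the array probes that tell them apart are shown first. Both are on the minus strand of chromosome 7 in the mm7 build of the array design, the Hamp probe at chr7:27882251-27882310 and the Hamp2 probe at chr7:27862281-27862340. They are printed 5′ to 3′ with the bases that differ from the other probe in capitals.
Hamp probe: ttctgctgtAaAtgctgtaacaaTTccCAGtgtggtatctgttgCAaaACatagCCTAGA
Hamp2 probe: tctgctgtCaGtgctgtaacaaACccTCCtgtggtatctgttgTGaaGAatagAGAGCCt
Set against each other without gaps, the probes overlap over 59 of their 60 bases, of which 17 differ and 71.2% are identical. How much of each transcript the other probe captures was not measured here, so part of a probe's signal may come from the other gene.

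The stretch before the start site of each hepcidin gene is shown because BMP and STAT3 signals reach the gene there. The sequences are those of RefSeq on GRCm38.p6, minus strand, at chr7:30944030-30944279 for Hamp and chr7:30924182-30924431 for Hamp2, and each covers the 250 bases before the start. Capitals mark the letters GGCGCC, known as the core of a BMP response element, and TTCNNNGAA, the general form of a STAT site, in Hamp, and the letters aligned with them in Hamp2.
Hamp promoter: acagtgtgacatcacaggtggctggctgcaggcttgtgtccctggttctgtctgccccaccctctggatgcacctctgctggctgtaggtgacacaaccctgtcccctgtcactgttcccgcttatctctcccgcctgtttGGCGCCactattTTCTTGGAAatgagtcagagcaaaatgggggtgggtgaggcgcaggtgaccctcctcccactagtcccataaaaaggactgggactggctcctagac
Hamp2 promoter: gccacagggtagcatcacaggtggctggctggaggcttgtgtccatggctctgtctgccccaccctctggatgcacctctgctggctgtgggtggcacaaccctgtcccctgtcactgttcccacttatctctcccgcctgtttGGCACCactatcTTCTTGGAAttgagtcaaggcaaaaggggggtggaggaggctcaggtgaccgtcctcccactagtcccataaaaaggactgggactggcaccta
Aligned over the 300-base windows that run on past the start, the genes share 297 positions without a gap, differ at 21 of them and are 92.9% identical. In Hamp, GGCGCC begins 109 bases before the start. The aligned letters in Hamp2 are GGCACC, a G145A substitution counted from 1 at the 5′ end of the Hamp window, and GGCGCC does not occur in the Hamp2 window. The STAT-type match TTCTTGGAA begins 97 bases before the Hamp start and is the same in both genes. The searched motifs read alike on both strands and do not overlap each other here. Of 32851 RefSeq promoter windows of the same length, 11.9% hold GGCGCC and 8.3% hold TTCNNNGAA. Of the other members with a window, Tfrc holds 1 match to GGCGCC in 1 of its 2 windows, and Bmp6 holds neither motif. Trf, Slc40a1, Smad7 and Id1 are named only.

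Levels below are the log2 of the processed spot intensity minus the 75th percentile of its array, so 0 is the signal that 75% of the array's probes do not exceed, and a difference of 1 is a 2-fold difference. Between 54.9% and 66.3% of probes were well above background per array, a call of the scanner software. AAV-GFP replicate 3 had the lowest 75th percentile of raw intensity, 209, and the lowest share of probes above background. PBS replicate 3 was next at 349, followed by AAV-hGRB replicate 1 at 389, and the highest was 598. Results that rest on the 2 arrays of lowest intensity are given with and without them. All 7 hepatocyte markers with a probe, albumin among them, were well above background on all 12 arrays, with a mean level of 7.41 to 7.90. Nr3c1, the GR gene, does not check the knockout labels, since every group carries it and the deleted part is not stated: its 3 probes well above background on all 12 arrays had log2 changes of 0.07, 0.42 and 0.26 with AAV-hGRB against AAV-GFP and of -0.03, -0.27 and 0.005 with AAV-GFP against PBS. In a limma fit to the 26593 probes well above background on at least 4 arrays, 0 passed a Benjamini-Hochberg adjusted p of 0.05 in any of the 3 comparisons (percent called 0). An unadjusted p under 0.05 was reached by 892 probes between the 2 virus groups, 448 between AAV-GFP and PBS and 1553 between AAV-hGRB and PBS. With no true difference, a share of 0.05 of the 26593 probes would be expected there, so these counts do not name differing probes. The labels do not say that the 4 samples of a group are 4 animals, so a p-value here reflects only the spread among these samples, which may be technical.

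Among the 8 genes, Hamp2 had the widest differences between groups. Its level was highest with PBS, intermediate with AAV-GFP and lowest with AAV-hGRB. Replicates 1 to 4 had levels of 4.49, 4.12, 4.15 and 4.67 with PBS, 3.60, 3.46, 3.78 and 2.32 with AAV-GFP, and 2.72, 2.47, 2.42 and 1.36 with AAV-hGRB. Every PBS sample was above every sample given a virus, and the AAV-GFP and AAV-hGRB samples overlapped through AAV-GFP replicate 4, which lay below 3 of the 4 AAV-hGRB samples. The group means were 4.36 ± 0.27 with PBS, 3.29 ± 0.66 with AAV-GFP and 2.24 ± 0.61 with AAV-hGRB (SD, n = 4).

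Against PBS, Hamp2 was 4.33-fold lower with AAV-hGRB, a log2 change of -2.11 (SE 0.36, 95% confidence interval -2.89 to -1.34), and a gap of 1.40 separated the groups. With AAV-GFP it was 2.09-fold lower than with PBS, at -1.06 (SE 0.36, interval -1.84 to -0.29), and the gap was 0.34. AAV-hGRB was 2.07-fold below AAV-GFP, at -1.05 (SE 0.36, interval -1.83 to -0.27). In size, the change against PBS with AAV-hGRB exceeded that of 99.9% of the probes tested. Hamp2 did not pass the adjusted threshold in any comparison of this fit. The rank and the unadjusted intervals describe Hamp2 only, because it was chosen with earlier results of these arrays known. That Hamp2 did not overlap was 1 of 8 members in each comparison with PBS, beside 2.45% of all probes lower without overlap for AAV-hGRB and 0.357% for AAV-GFP (2.14% and 0.583% were higher without overlap), and nothing is read from it, since the members were chosen with these contrasts known. Against AAV-GFP, 0 of the 8 members were free of overlap, beside 1.94% of probes lower and 1.05% higher without overlap.

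The sign of the Hamp2 differences was the same with every array left out in turn and within every slide that held both groups. Within slide 5, which held an array of each group, AAV-hGRB minus PBS was -1.95, AAV-GFP minus PBS -1.20 and AAV-hGRB minus AAV-GFP -0.74. Within slide 6 these were -1.72, -0.37 and -1.36, and within slide 1 AAV-GFP minus PBS was -0.52. AAV-GFP replicate 4 mattered most to the virus comparisons: without it AAV-hGRB minus AAV-GFP was -1.37 and AAV-GFP minus PBS -0.74. That array was the only one on slide 4 and on scan day 2. Without AAV-hGRB replicate 4, AAV-hGRB minus AAV-GFP was -0.75.

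**Figure D1:**
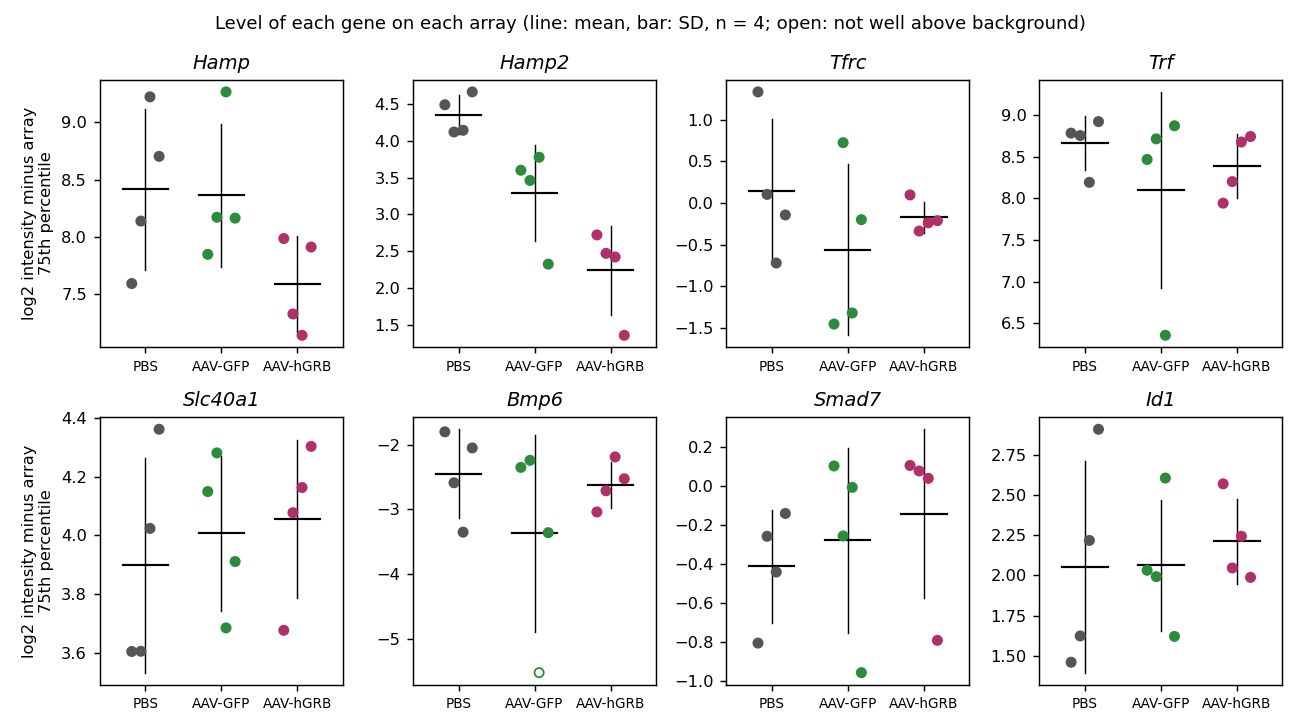
Level of each of the 8 genes on the 12 arrays, as log2 intensity minus the 75th percentile of the array, by group; points are arrays, lines are means and bars are SD (n = 4), and the open point is not well above background. For Hamp2, all PBS points lie between 4.12 and 4.67, above every point of the groups given a virus; for the other 7 genes the groups overlap.

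Hamp, the gene of the iron hormone, was lower on average with AAV-hGRB than in either other group, with overlap. Replicates 1 to 4 had levels of 7.59, 8.14, 9.22 and 8.70 with PBS, 7.85, 8.17, 9.27 and 8.16 with AAV-GFP, and 7.99, 7.33, 7.14 and 7.91 with AAV-hGRB. The highest values were those of AAV-GFP replicate 3 and PBS replicate 3, the 2 arrays of lowest intensity, and AAV-hGRB replicates 2 and 3 lay below every sample of the other groups. Hamp was 1.71-fold lower with AAV-hGRB than with AAV-GFP, at -0.77 (SE 0.39, interval -1.62 to 0.07). It was 1.77-fold lower than with PBS, at -0.82 (SE 0.39, interval -1.67 to 0.02). AAV-GFP and PBS differed by -0.05 (SE 0.39).

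Without AAV-GFP replicate 3 and PBS replicate 3, the Hamp differences of AAV-hGRB were -0.47 against AAV-GFP and -0.55 against PBS. The sign against both groups was negative under all alternatives run, but the size differed between slides: AAV-hGRB minus AAV-GFP was -0.19 within slide 5 and -2.12 within slide 6, which held both arrays of low intensity. The sign of AAV-GFP minus PBS turned in 6 of 26 alternatives.

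The relation of the hepcidin genes to each other was followed within arrays. The difference Hamp minus Hamp2, taken within each array, was 4.06 ± 0.81 with PBS, 5.07 ± 0.72 with AAV-GFP and 5.35 ± 0.84 with AAV-hGRB (SD, n = 4). It ranged from 3.1 to 5.08 with PBS, from 4.25 to 5.84 with AAV-GFP and from 4.72 to 6.55 with AAV-hGRB, so the groups overlapped. The difference is read across arrays only, since the probes' own brightness does not compare the transcripts. Over the 12 arrays the Pearson correlation of Hamp and Hamp2 was 0.47, and 0.03 after the group means were taken off. These points share the scaling of their array.

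**Figure D2:**
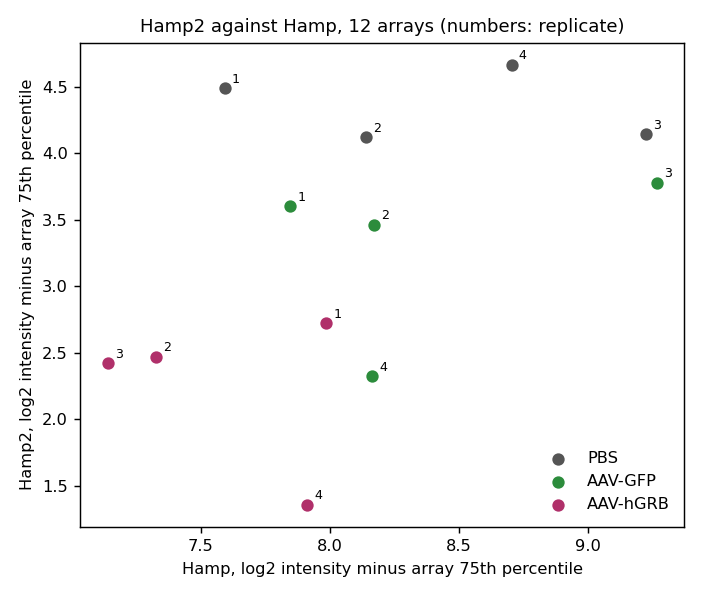
Hamp2 level against Hamp level on the 12 arrays (both axes log2 intensity minus the 75th percentile of the array), coloured by group and numbered by replicate. PBS arrays lie at the top at Hamp levels from 7.59 to 9.22, and the array of lowest Hamp2, AAV-hGRB replicate 4 at 1.36, has a Hamp level of 7.91.

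Among the genes of transferrin-bound iron, group differences were within the spread of the samples. Tfrc encodes the transferrin receptor that takes up iron-loaded transferrin, and its mRNA is stabilised when cells lack iron. Its levels for replicates 1 to 4 were 1.33, 0.10, -0.72 and -0.14 with PBS, -1.45, 0.72, -1.32 and -0.20 with AAV-GFP, and 0.10, -0.34, -0.24 and -0.21 with AAV-hGRB. The AAV-hGRB samples were close together (SD 0.19), while PBS and AAV-GFP were spread (SD 0.87 and 1.03). AAV-hGRB minus AAV-GFP was 0.39 (SE 0.50), AAV-hGRB minus PBS -0.32 (SE 0.50) and AAV-GFP minus PBS -0.71 (SE 0.50). Single arrays moved these values: AAV-hGRB minus PBS was 0.08 without PBS replicate 1 and -0.60 without PBS replicate 3. AAV-GFP minus PBS was -0.31 without PBS replicate 1, -0.41 and -0.45 without AAV-GFP replicates 1 and 3, and -1.14 without AAV-GFP replicate 2. AAV-hGRB minus AAV-GFP was 0.09, 0.82 and 0.14 without AAV-GFP replicates 1, 2 and 3. Within single slides, AAV-GFP minus PBS ran from -1.56 to 0.87.

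Trf encodes transferrin, the iron carrier of plasma that the liver secretes. Its levels were 8.78, 8.75, 8.19 and 8.92 with PBS, 8.47, 8.71, 6.36 and 8.87 with AAV-GFP, and 7.94, 8.20, 8.68 and 8.74 with AAV-hGRB. AAV-GFP replicate 3 was the lowest of the 12, and the other 11 samples overlapped between groups. AAV-hGRB minus AAV-GFP was 0.29 (SE 0.47), and -0.29 without that array. AAV-GFP minus PBS was -0.56 (SE 0.47) with it and 0.02 without it, and AAV-hGRB minus PBS was -0.27 (SE 0.47), and -0.43 without PBS replicate 3. In the mm7 coordinates of the array design the Trf probe spans 616 bases of chromosome 9, more than its own 60, so it lies across an intron.

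Slc40a1 encodes ferroportin, the exporter that hepcidin acts on at the protein level. It varied least of the 8 genes, with an SD of 0.28 over the 12 arrays, beside a median of 0.45 over all probes tested. Levels were 3.61, 3.61, 4.02 and 4.36 with PBS, 4.15, 4.28, 3.69 and 3.91 with AAV-GFP, and 3.68, 4.08, 4.16 and 4.30 with AAV-hGRB. The groups covered much the same range. AAV-hGRB minus AAV-GFP was 0.05 (SE 0.23, interval -0.46 to 0.55), AAV-hGRB minus PBS 0.16 (SE 0.23, interval -0.35 to 0.66) and AAV-GFP minus PBS 0.11 (SE 0.23). The sign of AAV-hGRB minus AAV-GFP turned in 6 of 25 alternatives, and it was -0.60 within slide 5 and 0.48 within slide 6.

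In the BMP pathway, Bmp6 is the ligand that signals liver iron to hepatocytes. Its brightest probe was dim, with levels of -1.80, -2.59, -3.35 and -2.05 with PBS, -2.35, -2.24, -5.53 and -3.36 with AAV-GFP, and -3.04, -2.71, -2.19 and -2.53 with AAV-hGRB. AAV-GFP replicate 3 was not well above background and was the lowest, and the groups overlapped. AAV-hGRB minus AAV-GFP was 0.75 (SE 0.62) and 0.03 without that array, and AAV-GFP minus PBS was -0.92 (SE 0.62) and -0.20 without it. AAV-hGRB minus PBS was -0.17 (SE 0.62), which was -0.47 without PBS replicate 3, 0.05 without PBS replicate 1 and 0.005 with normexp background. Another Bmp6 probe was well above background on only 3 arrays, 1 in each group, and gives no change here.

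Smad7 encodes the inhibitory SMAD that dampens BMP signals and is itself a target of them. Its levels were -0.80, -0.26, -0.44 and -0.14 with PBS, 0.10, -0.26, -0.01 and -0.96 with AAV-GFP, and 0.11, 0.08, 0.04 and -0.79 with AAV-hGRB. Of the AAV-hGRB samples, 3 lay above all PBS samples and replicate 4 lay near the lowest PBS sample. AAV-hGRB minus PBS was 0.27 (SE 0.29), 0.49 without AAV-hGRB replicate 4 and 0.14 without PBS replicate 1. Against AAV-GFP the difference was 0.14 (SE 0.29), which turned to -0.09 when AAV-GFP replicate 4 was left out and was 0.23 when AAV-GFP replicate 3 was. For AAV-GFP minus PBS it was 0.13 (SE 0.29), and 0.36 and 0.04 with these arrays left out in the same order.

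Id1, an inhibitor of differentiation and a direct BMP target, had levels of 1.46, 1.62, 2.22 and 2.91 with PBS, 2.03, 1.99, 2.61 and 1.62 with AAV-GFP, and 2.57, 2.05, 2.24 and 1.99 with AAV-hGRB. The PBS samples held both the lowest and the highest value of the 12, so the groups overlapped throughout. AAV-hGRB minus AAV-GFP was 0.15 (SE 0.32), AAV-hGRB minus PBS 0.16 (SE 0.32) and AAV-GFP minus PBS 0.01 (SE 0.32). Without AAV-GFP replicate 3, AAV-hGRB minus AAV-GFP was 0.33 and AAV-GFP minus PBS -0.17. The other Id1 probe, which overlaps it on chromosome 2, gave 0.15, 0.16 and 0.02.

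**Figure D3:**
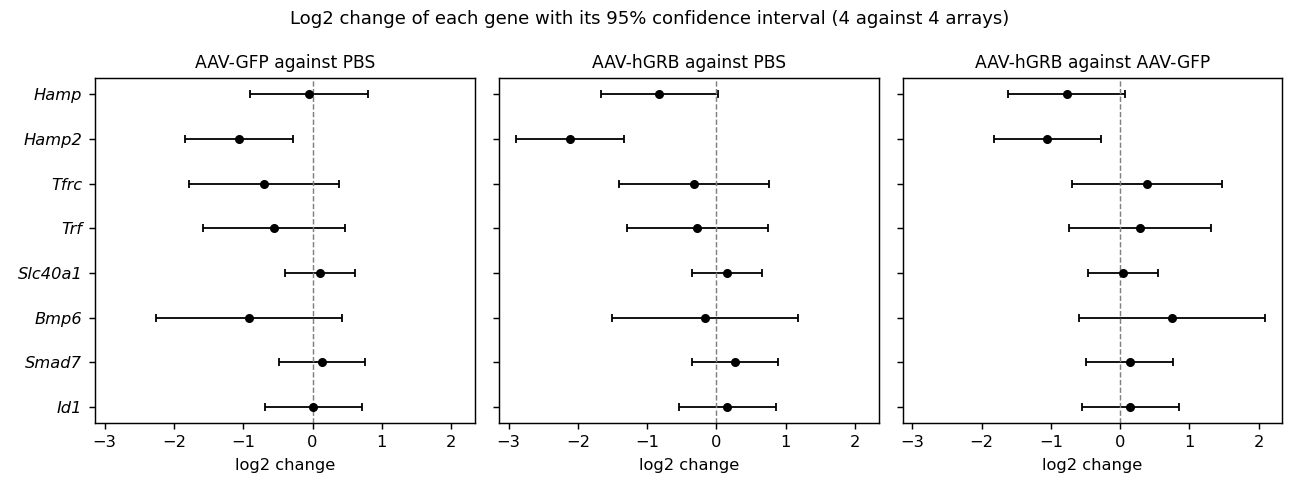
Log2 change of each of the 8 genes in the 3 comparisons, with its 95% confidence interval from the fit over all probes (4 against 4 arrays); the dashed line is 0. Hamp2 lies at -1.06, -2.11 and -1.05 from left to right, and the widest intervals are those of Bmp6.

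Over the 12 arrays, the members formed few close pairs, and these values are descriptions of points that share the scaling of their array. Trf and Bmp6 had a Pearson r of 0.89, which was 0.50 without AAV-GFP replicate 3, the lowest array for both. Tfrc had an r of 0.58 with Bmp6 and 0.53 with Trf, which were 0.41 and 0.31 without AAV-GFP replicate 3. Without PBS replicate 1 and AAV-GFP replicate 1, the arrays farthest from the Tfrc median, they were 0.78 and 0.72. Smad7 and Id1, both BMP targets, had an r of 0.61 (Spearman rho 0.66) and 0.60 after the group means were taken off. Without AAV-GFP replicate 4 and PBS replicate 1, the arrays farthest from the Smad7 median, it was 0.31. Hamp and Id1 had an r of 0.43 and 0.67 after group means were taken off. Over all groups it was 0.30 without AAV-GFP replicate 3, and 0.30 without PBS replicate 3 as well. Hamp and Bmp6 went opposite ways, with an r of -0.64, which was -0.78 after group means were taken off. Over all groups it was -0.41 without AAV-GFP replicate 3, and -0.10 without PBS replicate 3 as well. Hamp and Trf had an r of -0.49, which was -0.66 after group means were taken off. Over all groups it was -0.02 without AAV-GFP replicate 3, and 0.36 without PBS replicate 3 as well. Hamp2 and Smad7 had an r of 0.13 over all arrays and 0.85 within groups, where replicate 4 of AAV-GFP and of AAV-hGRB was low for both genes. Without these arrays the r over all groups was -0.68, a value that includes the differences between group means. The r within groups was not computed without them, so how far it rests on them was not tested.

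Of 12649 named genes, the 5 whose levels followed Hamp most closely over the 12 arrays were Slc9a3r2 (r 0.97), Cuedc2 (0.97), Gamt (0.95), Ecm1 (0.94) and Smarcd3 (0.93). Without AAV-GFP replicate 3 and PBS replicate 3, the arrays where Hamp was highest, these correlations were 0.83 to 0.95. For Hamp2 they were Olfr1230 (0.84), Mus81 (0.83), Olfr100 (0.82), Krtap4-13 (0.80) and Prodh2 (0.80), of which Olfr1230 was well above background on 5 arrays and Krtap4-13 on 9. After the group means were taken off, these Hamp2 correlations were 0.29 to 0.64, while those of Hamp were 0.94 to 0.97. No gene was shared between these lists, and each rank comes from only 12 arrays. For Tfrc the closest were Uso1 (0.88), Fam110c (0.86), Denr (0.86), Hspa13 (0.86) and Uap1 (0.86), with Fam110c well above background on 7 arrays. Without PBS replicate 1 and AAV-GFP replicate 1 these were 0.66 to 0.90. For Smad7 the closest were Tmem131l (0.86), Apol7c (0.85), Cbx7 (0.83), Zfp101 (0.83) and Hmgb2 (0.82), and without AAV-GFP replicate 4 and PBS replicate 1 these were 0.67 to 0.85. For Id1 they were Gmpr (0.90), Hmgb2 (0.89), Ddx11 (0.88), Rbak (0.87) and Rwdd3 (0.87), so that Hmgb2, a chromatin protein, was near both BMP targets.

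The other genes of the iron pathway, 112 in 7 lists written from general knowledge, were tested in the same limma fit where their probes were bright enough, which held for 106. In each of the 3 comparisons 0 of the 106 passed the threshold, beside percent called 0 over all probes, and at an unadjusted p under 0.05 there were 4 for AAV-hGRB against AAV-GFP, 5 for AAV-hGRB against PBS and 1 for AAV-GFP against PBS. Against PBS, 29 of the 106 were higher and 77 lower with AAV-hGRB, with a median of -0.14, beside a median of -0.06 over all probes. Against AAV-GFP, 41 were higher and 65 lower (median -0.07, all probes -0.05), and with AAV-GFP against PBS 45 were higher and 61 lower (median -0.06, all probes 0.00). With AAV-hGRB, 4 of the 106 were without overlap against AAV-GFP and 4 against PBS. For AAV-GFP against PBS there were 0. Over all probes, 1.94% were lower and 1.05% higher without overlap against AAV-GFP, and 2.45% lower and 2.14% higher against PBS. For AAV-GFP against PBS these shares were 0.357% and 0.583%. Nothing is read from these counts. The values that follow are log2 changes of genes that did not pass, namely the 3 of lowest unadjusted p in each list.

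Of the receptors and iron sensors that set hepcidin, 7 of 12 were lower with AAV-hGRB than with AAV-GFP and 9 of 12 lower than with PBS (medians -0.03 and -0.04). The count against PBS was 7 of 12 with quantile scaling and 5 of 12 with median scaling, where the median was 0.01. Tmprss6, the protease that cuts hemojuvelin and so restrains hepcidin, had levels of 6.73, 6.91, 6.50 and 6.77 with AAV-GFP, 6.20, 6.38, 6.09 and 6.25 with AAV-hGRB, and 6.24, 6.67, 6.74 and 6.81 with PBS. AAV-hGRB lay below all AAV-GFP samples, at -0.50 (SE 0.18), and overlapped with PBS, at -0.38 (SE 0.18). Tfr2, the hepatocyte's sensor of transferrin-bound iron, had levels of 6.60, 6.58, 6.80 and 6.92 with PBS and 6.12, 6.13, 6.45 and 6.53 with AAV-hGRB, without overlap, at -0.42 (SE 0.19). Against AAV-GFP it was at -0.30 (SE 0.19). The third gene was Neo1, which binds hemojuvelin, against AAV-GFP (-0.20, SE 0.16) and Acvr1, a BMP type I receptor, against PBS (-0.22, SE 0.21). With AAV-GFP against PBS the leading genes were the receptor Bmpr1a (0.28, SE 0.23), Acvr1 (-0.23, SE 0.21) and the BMP co-receptor Hjv (-0.29, SE 0.28).

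The BMP ligands and antagonists were split, with 6 of 12 lower than AAV-GFP and 9 of 12 lower than PBS with AAV-hGRB. With normexp background these counts were 4 of 12 (median 0.08) and 6 of 12 (median 0.009). Sost, an antagonist of Wnt and BMP signals, was at -0.64 (SE 0.33) against AAV-GFP and -0.89 (SE 0.33) against PBS. The BMP antagonist Nog was at -1.27 (SE 0.50) with AAV-GFP against PBS and 0.80 (SE 0.50) with AAV-hGRB against AAV-GFP, with levels spread from -3.20 to -0.80 among the AAV-GFP samples. Other leading values were Fst at 0.50 (SE 0.45) against AAV-GFP, and Chrd at -0.47 (SE 0.29) and Bmp2 at 0.26 (SE 0.22) against PBS. With AAV-GFP against PBS they were the ligands Gdf2 at -0.27 (SE 0.24) and Bmp10 at 0.47 (SE 0.44). Among the SMAD mediators and BMP target genes, 6 of 9 were lower with AAV-hGRB against either group, and with quantile scaling 4 of 9 were lower than AAV-GFP (median 0.03) and 5 of 9 lower than PBS. Their leading values were Smad5 (-0.20, SE 0.17), Atoh8 (0.28, SE 0.31) and Smad4 (-0.14, SE 0.19) against AAV-GFP, and Smad6 (-0.25, SE 0.19), Smad1 (0.31, SE 0.25) and Id4 (-0.32, SE 0.25) against PBS. With AAV-GFP against PBS, Id4 was at -0.41 (SE 0.25), Id3 at -0.53 (SE 0.34) and Smad1 at 0.34 (SE 0.25).

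On the inflammatory route to hepcidin, 6 of 15 genes were lower than AAV-GFP and 8 of 15 lower than PBS with AAV-hGRB, the latter being 7 of 15 with quantile or median scaling. Creb3l3, a liver transcription factor of the endoplasmic reticulum, had levels of 5.67, 5.65, 5.71 and 5.61 with AAV-hGRB, below all AAV-GFP samples (6.10, 6.24, 5.78 and 6.04) and all PBS samples (6.26, 5.77, 5.80 and 5.90). Its changes were -0.38 (SE 0.18) against AAV-GFP and -0.27 (SE 0.18) against PBS. Il22ra1, a subunit of the interleukin 22 receptor, was at -0.91 (SE 0.32) against AAV-GFP and -0.9998 (SE 0.32) against PBS, with overlap. The cytokine Il6 was at 0.48 (SE 0.43) against AAV-GFP, and Inhbb, an activin subunit, at 0.49 (SE 0.35) against PBS. With AAV-GFP against PBS, Il6 was at -0.61 (SE 0.43), Inhbb at 0.45 (SE 0.35) and Il6st, the shared receptor subunit, at -0.39 (SE 0.31).

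Of the genes of iron and haem uptake, storage and export, 21 of 32 were lower than AAV-GFP and 22 of 32 lower than PBS with AAV-hGRB, and with quantile scaling the first of these counts was 14. Slc25a28, a mitochondrial iron importer, stood within 2.33 to 2.36 on the AAV-hGRB arrays, below the 2.44 to 2.76 of AAV-GFP and the 2.47 to 2.86 of PBS, at -0.30 (SE 0.16) and -0.33 (SE 0.16). The metalloreductase Steap2 was at -0.72 (SE 0.35) against AAV-GFP and -1.12 (SE 0.35) against PBS, and Steap1 at -0.68 (SE 0.38) against AAV-GFP. Slc11a1, a metal transporter of macrophages, was at 0.55 (SE 0.25) against PBS. With AAV-GFP against PBS, Lcn2, which binds bacterial iron carriers, was at -1.18 (SE 0.69), Steap4 at -0.88 (SE 0.63) and the haem oxygenase Hmox1 at -0.40 (SE 0.30). Of the iron regulatory proteins and oxygen sensors, 5 of 10 were lower than AAV-GFP and 7 of 10 lower than PBS, and with median scaling 5 of 10 against either group. Leading values were Ireb2 (-0.18, SE 0.19), Aco1 (-0.17, SE 0.25) and Epas1 (0.41, SE 0.73) against AAV-GFP. Against PBS they were Arnt (0.22, SE 0.17), Aco1 (-0.29, SE 0.25) and Egln1 (-0.40, SE 0.48), and for AAV-GFP against PBS Egln1 (-0.63, SE 0.48), Arnt (0.19, SE 0.17) and Egln2 (-0.45, SE 0.45).

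The genes of haem and iron-sulphur synthesis were the most one-sided list: 16 of 16 had lower mean levels with AAV-hGRB than with PBS (median -0.26) and 14 of 16 lower than with AAV-GFP (median -0.24), while with AAV-GFP against PBS 7 of 16 were lower (median 0.04). Against PBS, 15 or 16 of them were lower in each of 23 alternatives, with medians from -0.35 to -0.14. Against AAV-GFP the count fell to 11 of 16 with quantile scaling (median -0.09). None of the 16 passed the test, and the 16 share the same arrays. Ppox, an enzyme late in haem synthesis, had levels of 2.05, 2.12, 2.50 and 1.87 with AAV-GFP, 1.71, 1.53, 1.45 and 1.64 with AAV-hGRB, and 1.59, 2.08, 2.31 and 1.84 with PBS. AAV-hGRB lay below all AAV-GFP samples, at -0.55 (SE 0.21), and at -0.37 (SE 0.21) against PBS, with overlap. Alas1, the first enzyme of haem synthesis in liver, was at -0.999 (SE 0.55) against PBS, with PBS samples from 5.21 to 7.72. Alas2, its form in red cell precursors, was at -0.55 (SE 0.21) against AAV-GFP and -0.43 (SE 0.21) against PBS, and Urod was at -0.36 (SE 0.19) against AAV-GFP. With AAV-GFP against PBS, Uros was at -0.52 (SE 0.30), Urod at 0.18 (SE 0.19) and Ppox at 0.18 (SE 0.21).

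**Figure D4:**
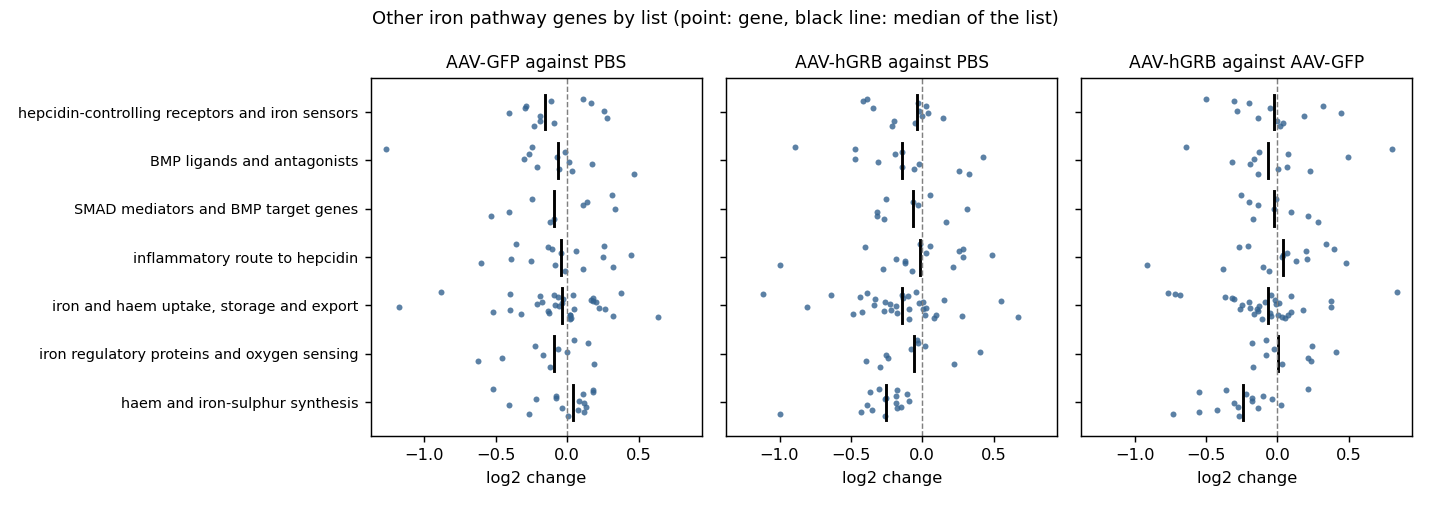
Log2 change of the 106 other iron pathway genes in the 3 comparisons, by list; points are genes and black lines are list medians. In the comparison of AAV-hGRB with PBS all 16 genes of haem and iron-sulphur synthesis lie below 0, with a median of -0.26; none of the 106 passed the test.

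Markers of liver cell types moved beside these groups, and their part in the results was not tested. In whole liver, fewer cells of a type and less RNA per cell cannot be told apart. Of the 7 hepatocyte markers, 6 were lower with AAV-hGRB than with AAV-GFP (median -0.16) and 5 lower than with PBS (median -0.10). Against AAV-GFP, 7 of 7 were lower with normexp background (median -0.35) and 6 of 7 higher with quantile scaling (median 0.07). Of the red cell markers, 4 of 8 were tested, Alas2 among them. Their mean level was 1.25 to 1.71 with AAV-hGRB, 1.84 to 2.05 with AAV-GFP and 1.52 to 2.53 with PBS, and all 4 were lower with AAV-hGRB than in either other group on average (3 of 4 against AAV-GFP with normexp background). All 10 Kupffer cell and macrophage markers were higher with AAV-hGRB than with PBS (median 0.64) and than with AAV-GFP (0.26, with 8 of 10 higher under normexp background), and higher with AAV-GFP than with PBS (0.38). Their mean level was 1.98 to 2.92 with AAV-hGRB, 1.82 to 2.45 with AAV-GFP and 0.91 to 2.24 with PBS. The 0.91 was that of PBS replicate 1, alone on slide 2, while PBS replicates 2 to 4 were at 2.17, 2.23 and 2.24, within the AAV-GFP range. With slide as a fixed block, only 2 of the 10 were higher with AAV-GFP than with PBS (median -0.12). The median for AAV-hGRB against PBS was then 0.11.

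Neutrophil markers were lower on average with either virus than with PBS, and markers of dividing cells were higher. The 4 neutrophil markers tested had a mean level of -1.34 to -0.89 with PBS, -2.30 to -1.55 with AAV-GFP and -2.08 to -1.27 with AAV-hGRB, so PBS did not overlap with AAV-GFP and overlapped with AAV-hGRB at its edge, and Elane, Ngp and Camp were not bright enough to be tested. The 8 markers of dividing cells had a mean level of -3.45 to -2.82 with PBS, -3.17 to -2.25 with AAV-GFP and -2.82 to -2.32 with AAV-hGRB. With AAV-GFP against PBS the median changes were -1.13 for neutrophil markers and 0.67 for dividing cells, and -0.51 and 0.28 with normexp background. Some of these markers were dim: Mpo was well above background on 11 arrays, Ltf, Top2a and Ccnb1 on 8 and Cdk1 on 7. The 10 markers of sinusoidal endothelial cells, the source of Bmp6, had much the same mean level in every group, 1.5 to 1.74 with PBS, 1.46 to 1.81 with AAV-GFP and 1.55 to 1.97 with AAV-hGRB. The 8 stellate cell markers likewise overlapped, with -0.81 to -0.05, -0.63 to -0.04 and -0.65 to -0.14 in the same order. In all of these lists 0 markers passed the test.

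**Figure D5:**
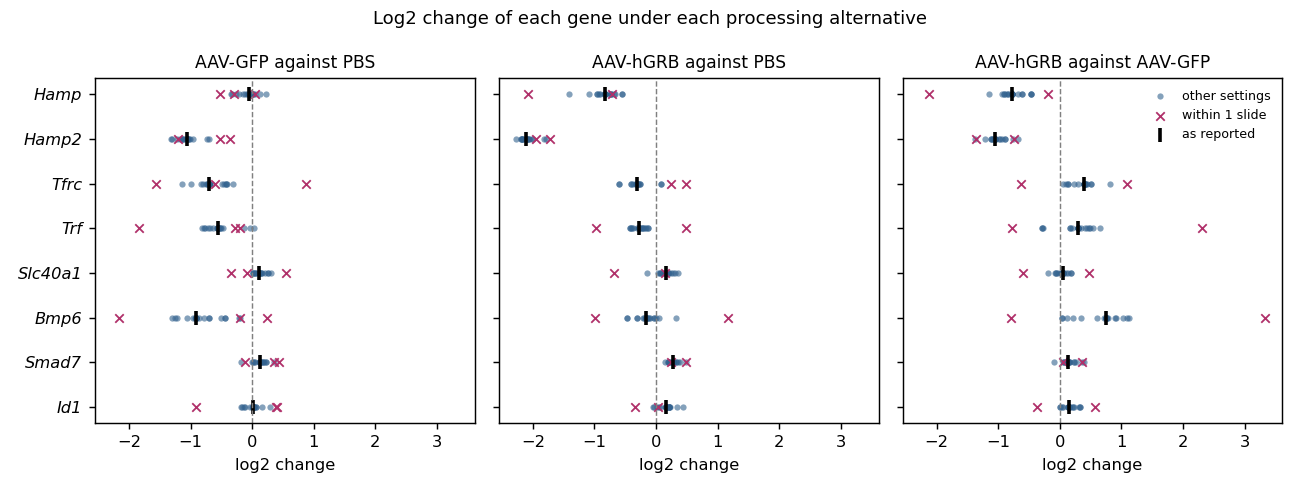
Log2 change of each of the 8 genes in the 3 comparisons as reported (black bars), under each processing alternative (blue points) and within single slides that held both groups (crosses). Hamp2 lies below 0 throughout, from -2.27 to -1.72 for AAV-hGRB against PBS, while every other gene lies on both sides of 0 in some comparison.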

How the data were processed

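Liver RNA of 12 samples, 4 in each of 3 groups, was hybridised to Agilent arrays with 1 dye (Cy3), and groups were taken from the labels. The values in the deposited scanner files are linear spot intensity, made with Agilent Feature Extraction 9.5.3.1 per the file headers, with background subtracted and the signal detrended; the submitters' processing notes name version 9.5. The deposited matrix of processed values equals these intensities within a relative 1e-06. From them, log2 values were computed here, spots of a probe were averaged, 1639 control spots were left out, and each array's 75th percentile was subtracted. Genes were named through RefSeq accessions or the array design. Probe coordinates are those of the design (mm7).

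limma 3.58.1 (R 4.3.3, statmod 1.5.0, version 1.17.8 of data.table) fitted 3 groups to all 12 arrays, with 9 residual degrees of freedom, for probes well above background on at least 4 arrays; p-values are two-sided and adjusted by Benjamini-Hochberg, with 0.05 as the threshold. Standard errors and 95% intervals come from this fit. Checked on simulated data for AAV-hGRB against PBS on 26593 probes, it recovered 18.5% of probes with a true 2-fold change and 67.8% at 4-fold, beside a mean of 4.5 false calls. Each of 10 draws changed 100 probes 2-fold and 100 probes 4-fold. Noise was drawn independently for every probe and array. Deviations that the probes of an array share were not simulated, so these figures may not hold for the real arrays. The members and gene lists were chosen with earlier results of these data known. Named genes are the members, Nr3c1, the 3 genes of lowest p in each list and comparison, and the 5 named genes closest to Hamp, Hamp2, Id1, Smad7 and Tfrc by Pearson r. Alternatives were quantile and median scaling, normexp background (offset 50), other filters, slide or replicate number as a block, array weights, each array left out, 2 groups per fit, the mean over a gene's probes and differences within slides; leaving out AAV-GFP 3 and PBS 3 together was added after seeing the data. The 6 slides were also the scan batches, and they did not hold the groups evenly. Of these arrays, AAV-GFP replicate 4 was alone on slide 4 and on scan day 2. AAV-hGRB replicates 2 and 4 were on slide 3 with no other group, and PBS replicate 1 was alone on slide 2. For these arrays slide and group cannot be told apart. The number of arrays limits the precision.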

Additional observations from a re-analysis of the deposited data

Results flagged for a closer look

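Of 30 sets of 4 arrays (10 probes in 3 groups), 2 held a sample far from the other 3 by Dixon's ratio, with a critical value of 0.829. Chance alone would mark about 1 in 20 such sets. Trf on AAV-GFP replicate 3 had a level of 6.36, while the other 3 AAV-GFP samples lay between 8.47 and 8.87 (ratio 0.84). That array also had the lowest 75th percentile of intensity, 209, and the lowest share of probes above background, 54.9%. Smad7 on AAV-hGRB replicate 4 had a level of -0.79, while the other 3 lay between 0.04 and 0.11 (ratio 0.93). On the same array Hamp2 was at 1.36, the lowest of the 12.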

How the results depend on the processing

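The count of probes past the threshold was 0 under every alternative run in the comparisons of AAV-hGRB with AAV-GFP and AAV-GFP with PBS, and for the iron pathway genes in all 3. For AAV-hGRB against PBS it was 67 with array weights and 0 under the other alternatives; these weights ran from 0.16 for AAV-GFP replicate 3 to 3.34 for PBS replicate 2. Leaving out each array in turn gave counts of 0 to 0 in each comparison. Replicate numbers were not treated as pairs, since the labels do not say that they pair the samples. The deviations of same-numbered samples correlated from -0.43 to 0.59. Over 0.1 were 3 pairs of AAV-GFP with PBS and 1 in each other comparison, and replicate 3 of every group was on slide 6. With the replicate block the counts were 0. At an unadjusted p under 0.05 there were then 884 probes for AAV-hGRB against AAV-GFP, 1604 for AAV-hGRB against PBS and 459 for AAV-GFP against PBS. Hamp2 was negative in all alternatives, from -2.27 to -1.72 for AAV-hGRB against PBS, from -1.37 to -0.68 for AAV-hGRB against AAV-GFP and from -1.32 to -0.37 for AAV-GFP against PBS. Over all 8 members the sign turned in 15 of 201 values for AAV-hGRB against AAV-GFP, 20 of 209 for AAV-GFP against PBS and 14 of 201 for AAV-hGRB against PBS. Of these values, 9, 10 and 7 moved by more than the spread between replicates; the cause was not tested. Quantile scaling turned the sign of Id1 in AAV-GFP against PBS, and normexp background turned Slc40a1 in AAV-hGRB against AAV-GFP (-0.08) and Bmp6 in AAV-hGRB against PBS (0.005). With 4 arrays a group and a dim Bmp6 probe, differences of the size seen for most members could not be told from the spread.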
